A study of Mus musculus with 22 samples.

Results

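Genes of recruited monocytes and scar-associated macrophages, 10 of the 24786 in the deposited tables, were followed across 6 mouse liver libraries. They were taken as a named list (Ly6c2, Ccr2, Ccl2, Trem2, Gpnmb, Cd9, Fcgr4, Itgax, Mmp12 and Lyz2). Bulk RNA sequencing was run on livers of C57BL/6 mice aged 2 to 4 weeks, with 2 libraries in each of 3 groups. The first group was CD8-depleted TG Aire-/-, the second TG Aire-/- without treatment, and the third untreated Aire+/+. TG stands for the dnTGFβRII transgene of the series title, a dominant-negative type II TGF-β receptor that is made in T cells from a Cd4 promoter. The way in which CD8+ T cells were depleted, and whether animals were pooled, is not given in the sources used here. TG Aire-/- and Aire+/+ mice differ at both the transgene and Aire, so the parts of these loci cannot be told apart.

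Blood monocytes that carry Ly6C and the chemokine receptor CCR2 leave the marrow and enter injured tissue along gradients of CCL2. In the liver they can turn into macrophages beside the resident Kupffer cells. In mouse and human fibrotic liver, such macrophages that gather at scars are marked by TREM2, CD9 and GPNMB, which are linked to lipid handling and lysosomes. Itgax and Fcgr4 encode a leukocyte integrin chain and an activating IgG receptor, Mmp12 a secreted elastase of macrophages, and Lyz2 the lysozyme of myeloid cells.

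Hepatocyte and CD8 markers were read first. Alb, the serum albumin of hepatocytes, had 49396.2 and 24359.1 RPKM in CD8-depleted TG Aire-/- livers, 24387.5 and 18963.7 in TG Aire-/- livers and 35829.8 and 39473.8 in Aire+/+ livers. RPKM is the read number scaled to gene length and to library depth, so levels of different genes can be set side by side. Cd8a was at 0 and 0.187 RPKM in CD8-depleted livers, 8.76 and 3.75 RPKM in TG Aire-/- livers and 0.161 and 0.22 RPKM in Aire+/+ livers. Aire was at or near 0 in all 6 livers, with a highest value of 0.301 RPKM in a TG Aire-/- library, which leaves the genotype labels unchecked. By Xist and Y-linked genes, both CD8-depleted libraries were male, while each of the other groups held replicate 1 from a male and replicate 2 from a female. Depth inferred from the steps between low values was 20300000 to 22700000 reads a liver library.

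All 10 genes rose in TG Aire-/- livers against Aire+/+ livers, and 9 of them fell in CD8-depleted TG Aire-/- livers against TG Aire-/- livers. Rises were called for 31.8% of the 12231 genes tested and falls for 5.5% of them (limma, Benjamini-Hochberg adjusted p under 0.05). In the depletion comparison 33.5% of genes fell and 4.49% rose. The median log2 difference of the 10 genes was 3.33 in TG Aire-/- against Aire+/+ livers, where that of all tested genes was 0.53. It was -2.20 in CD8-depleted against TG Aire-/- livers, where that of all tested genes was -0.58. Trem2, Gpnmb, Itgax and Mmp12 passed the filter (1 RPKM in at least 2 livers) only through the TG Aire-/- libraries, so these 4 had to differ. The comparisons share the TG Aire-/- libraries, and fewer cells of a type cannot be told apart from less RNA per cell in whole liver.

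**Figure D1:**
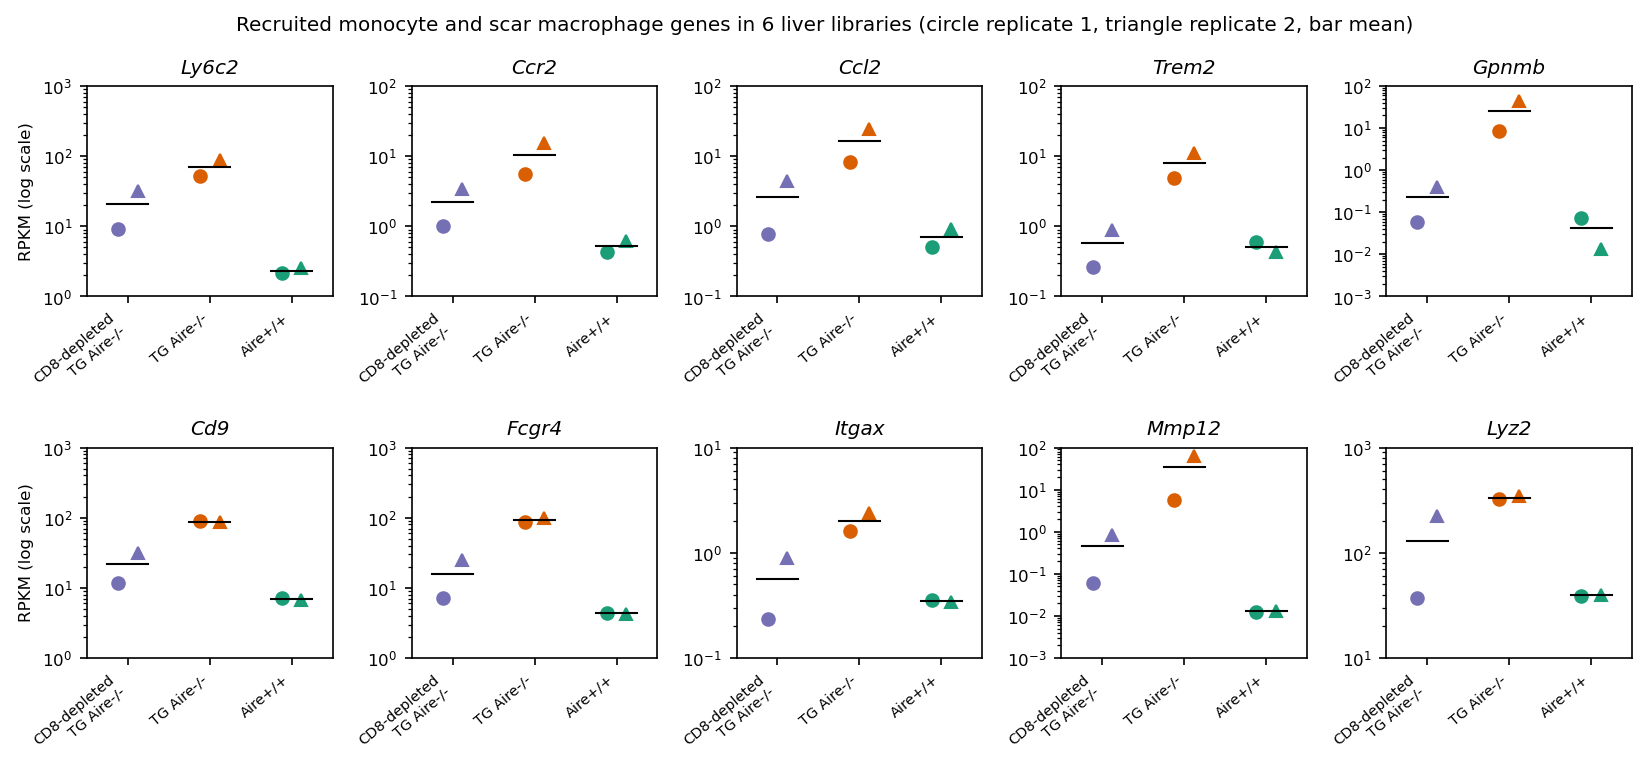
RPKM (log scale) of the 10 genes in each liver library, with CD8-depleted TG Aire-/- left, TG Aire-/- in the middle and Aire+/+ right; circles are replicate 1, triangles replicate 2 and bars the group mean. Both TG Aire-/- points lie above all 4 others in every panel, and the CD8-depleted triangle lies above its circle in every panel. For Trem2, Gpnmb, Itgax and Mmp12 the filter fixed the first order, and neither order was counted over all genes.

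Ccl2 encodes the chemokine that draws CCR2-bearing monocytes. It had 0.784 and 4.42 RPKM in CD8-depleted TG Aire-/- livers, 8.22 and 24.5 RPKM in TG Aire-/- livers and 0.515 and 0.91 RPKM in Aire+/+ livers. Both TG Aire-/- libraries were above the rest, and the lower CD8-depleted value lay between the Aire+/+ values. The difference of log2(RPKM + 1) was 3.17 (SE 0.613, limma adjusted p = 0.00797) in TG Aire-/- against Aire+/+ livers. It was -2.30 (SE 0.613, limma adjusted p = 0.0238) in CD8-depleted against TG Aire-/- livers. Without the second TG Aire-/- library the first difference was 2.44 and was no longer called (limma adjusted p = 0.0613).

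Ccr2, the receptor for that ligand, had 0.998 and 3.39 RPKM in CD8-depleted livers, 5.61 and 15.3 RPKM in TG Aire-/- livers and 0.426 and 0.616 RPKM in Aire+/+ livers. The 3 groups did not overlap, and CD8-depleted livers lay between the others. The mean level in TG Aire-/- livers was 20.1 times that in Aire+/+ livers. Ccr2 rose by 2.77 on the log2(RPKM + 1) scale in TG Aire-/- livers (SE 0.503, limma adjusted p = 0.00662) and fell by 1.81 in CD8-depleted livers (SE 0.503, limma adjusted p = 0.0273). Within each library the ratio of Ccl2 to Ccr2 was 0.786 and 1.3 in CD8-depleted livers, 1.47 and 1.6 in TG Aire-/- livers and 1.21 and 1.48 in Aire+/+ livers, so ligand and receptor stood in a narrow range of ratios across the 6 livers.

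Ly6c2, the surface marker of inflammatory monocytes in mice, had 9.02 and 32.1 RPKM in CD8-depleted livers, 51.6 and 89.4 RPKM in TG Aire-/- livers and 2.14 and 2.51 RPKM in Aire+/+ livers. The groups did not overlap, and the CD8-depleted libraries were again in the middle. Ly6c2 rose by 4.38 in TG Aire-/- livers (SE 0.546, limma adjusted p = 0.00235) and fell by 1.92 in CD8-depleted livers (SE 0.546, limma adjusted p = 0.0293), both on the log2(RPKM + 1) scale. The coding sequence of Ly6c2 is identical to that of its neighbour Ly6c1 at 384 of 393 bases (97.7%), so reads can be split between both, and Ly6c2 is uncertain as a single gene. Ly6c1 itself had 1.45 and 3.51 RPKM in CD8-depleted livers, 3.65 and 8.92 RPKM in TG Aire-/- livers and 0.376 and 0.211 RPKM in Aire+/+ livers.

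Lyz2 was the most abundant of the 10 genes in every liver library. It had 37.1 and 222 RPKM in CD8-depleted livers, 322 and 345 RPKM in TG Aire-/- livers and 39.1 and 39.9 RPKM in Aire+/+ livers. One CD8-depleted library lay below both Aire+/+ libraries and the other far above them. Lyz2 rose by 3.05 on the log2(RPKM + 1) scale in TG Aire-/- livers (SE 0.712, limma adjusted p = 0.0157), a call lost when any of the 4 TG Aire-/- or Aire+/+ libraries was left out (differences of at most 3.10, highest limma adjusted p 0.0986). Its difference of -1.86 in CD8-depleted against TG Aire-/- livers did not pass the test (SE 0.712, limma adjusted p = 0.0742), although the groups did not overlap. That difference was -0.58 without the first CD8-depleted library (limma adjusted p = 0.176) and -3.13 without the second. The coding sequence of its neighbour Lyz1 matches at 422 of 444 bases (95%), and Lyz1 had 0.566 and 4.27 RPKM in CD8-depleted livers, 4.97 and 5.99 RPKM in TG Aire-/- livers and 0.495 and 0.619 RPKM in Aire+/+ livers.

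Trem2, a lipid-sensing receptor of macrophages, had 0.264 and 0.88 RPKM in CD8-depleted livers, 4.88 and 11.2 RPKM in TG Aire-/- livers and 0.605 and 0.426 RPKM in Aire+/+ livers. Only the TG Aire-/- libraries stood out, and the CD8-depleted pair lay on either side of the Aire+/+ pair. Trem2 rose by 2.48 in TG Aire-/- livers (SE 0.378, limma adjusted p = 0.00392) and fell by 2.46 in CD8-depleted livers (SE 0.378, limma adjusted p = 0.00416), on the log2(RPKM + 1) scale. Its level per unit of Tyrobp, the adaptor through which TREM2 signals, was 0.0195 and 0.0189 in CD8-depleted livers, 0.0439 and 0.108 in TG Aire-/- livers and 0.0397 and 0.0296 in Aire+/+ livers. That ratio was lower in both CD8-depleted libraries than in the other 4.

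Gpnmb, a glycoprotein of lysosome-rich macrophages, had 0.0592 and 0.395 RPKM in CD8-depleted livers, 8.39 and 43.5 RPKM in TG Aire-/- livers and 0.073 and 0.0131 RPKM in Aire+/+ livers. The TG Aire-/- libraries stood far above the other 4, and the CD8-depleted pair overlapped the Aire+/+ pair. The lower Aire+/+ value is under what 3 reads on the gene would give at the inferred depth (0.0203 to 0.0227 RPKM). Gpnmb rose by 4.29 in TG Aire-/- livers (SE 0.629, limma adjusted p = 0.00351) and fell by 4.07 in CD8-depleted livers (SE 0.629, limma adjusted p = 0.0042). The pseudocount of 1 keeps both log2 differences below the change in RPKM itself. The TG Aire-/- libraries differed 5.18-fold from each other.

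Mmp12, the macrophage elastase, had 0.0609 and 0.833 RPKM in CD8-depleted livers, 5.78 and 61.8 RPKM in TG Aire-/- livers and 0.0122 and 0.0134 RPKM in Aire+/+ livers. Both Aire+/+ values are under the 3-read level of 0.0183 to 0.0204 RPKM. With a ratio of 10.7 between the TG Aire-/- libraries, Mmp12 varied more within that group than any of the other 9 genes. It rose by 4.35 in TG Aire-/- livers (SE 0.883, limma adjusted p = 0.00947) and fell by 3.89 in CD8-depleted livers (SE 0.883, limma adjusted p = 0.0142), on the log2(RPKM + 1) scale. Without the second TG Aire-/- library these differences were 2.74 (limma adjusted p = 0.0144) and -2.28 (limma adjusted p = 0.0179). Without the first CD8-depleted library the second difference was -3.49, with a limma adjusted p of 0.0847.

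Cd9, a tetraspanin of the cell membrane, had 11.8 and 31.7 RPKM in CD8-depleted livers, 88.8 and 85.5 RPKM in TG Aire-/- livers and 7.1 and 6.69 RPKM in Aire+/+ livers. The groups did not overlap, and replicates of TG Aire-/- and of Aire+/+ were close. Cd9 rose by 3.48 in TG Aire-/- livers (SE 0.426, limma adjusted p = 0.00229) and fell by 2.11 in CD8-depleted livers (SE 0.426, limma adjusted p = 0.00975), on the log2(RPKM + 1) scale. Among the listed genes it had the narrowest spread within TG Aire-/- livers as a share of its mean, with 87.2 ± 2.39 RPKM (SD, n = 2).

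Fcgr4, an activating receptor for IgG2 antibodies in mice, had 7.15 and 24.7 RPKM in CD8-depleted livers, 86.5 and 100 RPKM in TG Aire-/- livers and 4.43 and 4.19 RPKM in Aire+/+ livers. The groups did not overlap. Fcgr4 rose by 4.15 in TG Aire-/- livers (SE 0.494, limma adjusted p = 0.00217) and fell by 2.70 in CD8-depleted livers (SE 0.494, limma adjusted p = 0.00727), on the log2(RPKM + 1) scale. Per unit of Fcer1g, the signalling chain that Fcgr4 pairs with, it was at 0.448 and 0.427 in CD8-depleted livers, 0.413 and 0.549 in TG Aire-/- livers and 0.251 and 0.25 in Aire+/+ livers. On this ratio the CD8-depleted livers sat with the TG Aire-/- livers and above both Aire+/+ livers.

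Itgax, the integrin chain CD11c of dendritic cells and some macrophages, was low throughout. It had 0.233 and 0.89 RPKM in CD8-depleted livers, 1.61 and 2.39 RPKM in TG Aire-/- livers and 0.354 and 0.341 RPKM in Aire+/+ livers. Only the TG Aire-/- livers reached 1 RPKM. Itgax rose by 1.14 in TG Aire-/- livers (SE 0.269, limma adjusted p = 0.0161) and fell by 0.96 in CD8-depleted livers (SE 0.269, limma adjusted p = 0.0277), the smallest log2 differences of the 10 genes in both comparisons. The rise was not called without the second TG Aire-/- library (0.95, limma adjusted p = 0.0761) or without either Aire+/+ library (highest limma adjusted p 0.087), and the fall was not called without either Aire+/+ library, the second TG Aire-/- library or the first CD8-depleted library (highest limma adjusted p 0.126).

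The sequences before the starts of these genes were read because the genes moved together in the livers. Windows of 300 bases, 250 before and 50 after the start, came from RefSeq (GRCm38.p6) and were given for 9 of the 10 genes; Ccl2 was not matched. One window was read for each gene, which for Ly6c2 and Mmp12, with 2 windows each, was the one nearest the annotated gene start. The AP-1 motif TGANTCA, searched on both strands, was in the windows of 3 of the 9 genes and in 7.81% of all 32851 windows, in which a gene can have several. Among 6 motifs searched, only the AP-1 windows were picked for printing. N stands for any base, and was A in Trem2, C in Gpnmb and G in Itgax. The 3 windows are printed with the match in capitals, on the plus strand, and lie at chr17:48346151-48346450 (Trem2), chr6:49036268-49036567 (Gpnmb) and chr7:128129300-128129599 (Itgax).
Trem2: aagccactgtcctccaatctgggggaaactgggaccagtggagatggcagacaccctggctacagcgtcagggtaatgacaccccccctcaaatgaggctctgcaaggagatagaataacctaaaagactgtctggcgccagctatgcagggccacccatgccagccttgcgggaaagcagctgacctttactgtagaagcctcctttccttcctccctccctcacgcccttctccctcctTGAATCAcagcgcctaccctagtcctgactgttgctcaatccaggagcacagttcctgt
Gpnmb: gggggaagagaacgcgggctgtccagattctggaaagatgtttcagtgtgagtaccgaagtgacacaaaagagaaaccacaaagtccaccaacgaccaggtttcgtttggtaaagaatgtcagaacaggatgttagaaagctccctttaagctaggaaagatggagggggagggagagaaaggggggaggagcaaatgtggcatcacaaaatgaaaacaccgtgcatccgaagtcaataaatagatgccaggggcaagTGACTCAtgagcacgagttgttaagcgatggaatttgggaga
Itgax: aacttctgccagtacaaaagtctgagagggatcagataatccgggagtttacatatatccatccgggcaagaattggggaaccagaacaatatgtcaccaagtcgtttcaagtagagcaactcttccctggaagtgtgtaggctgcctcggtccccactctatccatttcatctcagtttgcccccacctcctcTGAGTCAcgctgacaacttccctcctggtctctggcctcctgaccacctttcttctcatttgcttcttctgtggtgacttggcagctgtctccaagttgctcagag
The match begins 9 bases before the start in Trem2, 8 bases after it in Gpnmb and 56 bases before it in Itgax. GAGGAA, a core bound by ETS factors, was in 4 of the 9 windows and 28.3% of all windows, the C/EBP letters TTGCNNAA in 2 and 10.8%, and an NF-κB pattern (GGG and CC around 5 free bases) in 3 and 50.8%. CACGTG, the E-box of MITF-type factors, and TTCNNNGAA, a STAT motif, were in 0 of the 9 windows, and in 7.15% and 8.3% of all windows. These are matches of letters, and binding was not measured.

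**Figure D2:**
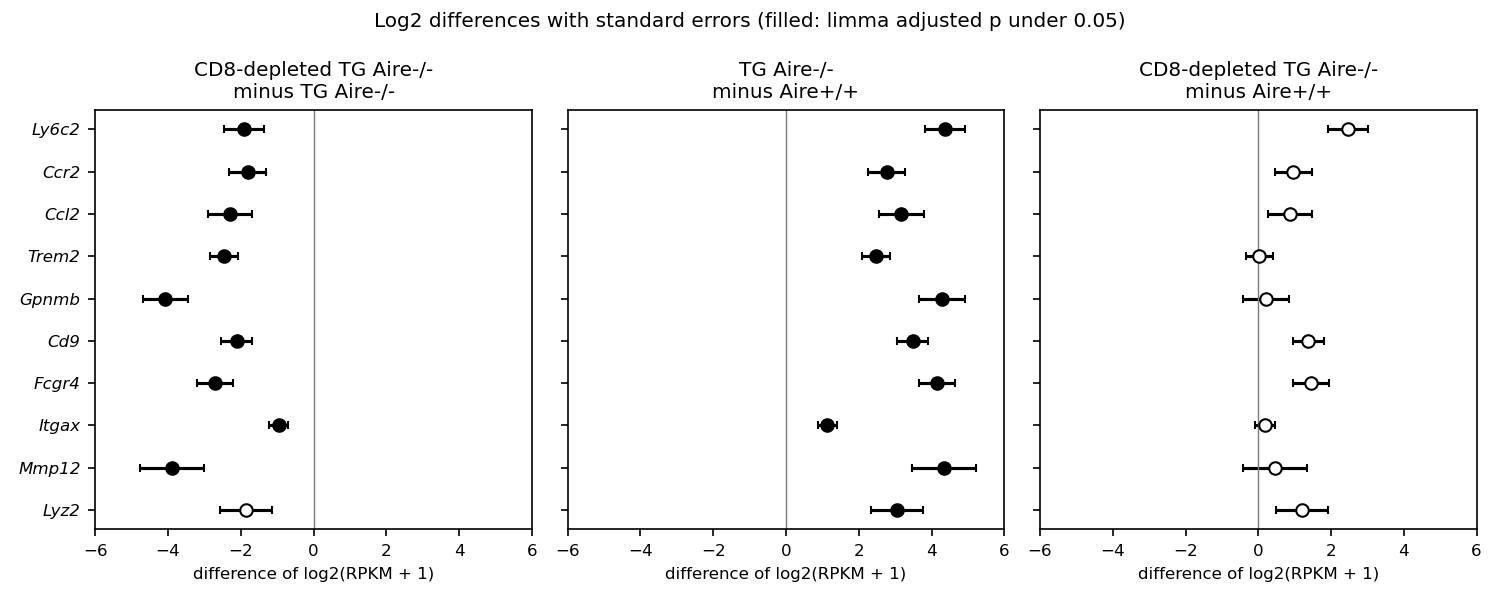
Differences of log2(RPKM + 1) with standard errors for the 10 genes in the 3 comparisons; filled points passed a limma adjusted p of 0.05 and open points did not. The 10 points of TG Aire-/- minus Aire+/+ are filled and lie between 1.14 and 4.38, 9 points of CD8-depleted minus TG Aire-/- are filled and lie between -4.07 and -0.96, and no point of CD8-depleted minus Aire+/+ is filled.

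CD8-depleted TG Aire-/- livers were also set against Aire+/+ livers. None of the 10 genes passed the test (limma adjusted p), and 3 had an unadjusted p under 0.05, namely Ly6c2, Cd9 and Fcgr4. Over all genes 0.221% were called higher and 0.327% lower, and 1327 of 12231 had an unadjusted limma p under 0.05. Ly6c2 had the largest difference, 2.46 on the log2(RPKM + 1) scale (SE 0.546, limma adjusted p = 0.144), followed by Fcgr4 with 1.45 (SE 0.494, limma adjusted p = 0.329) and Cd9 with 1.37 (SE 0.426, limma adjusted p = 0.285). Trem2, Itgax and Gpnmb differed by 0.03, 0.18 and 0.22. Ly6c2, Ccr2, Cd9, Fcgr4 and Mmp12 were higher in both CD8-depleted libraries than in both Aire+/+ libraries, while the other 5 overlapped. How many of all tested genes were higher without overlap was not counted, so this is a description. A p above the threshold does not show that the groups were alike. Without the first CD8-depleted library, 4 genes passed (Ly6c2, Cd9, Fcgr4 and Lyz2), with differences of 3.32, 2.05, 2.28 and 2.46, where 0.981% of all genes were called higher. Without the second CD8-depleted library these differences were 1.59, 0.69, 0.62 and -0.09 in the same order, and none was called (lowest limma adjusted p 0.165).

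The CD8-depleted libraries differed from each other for all 10 genes, with the second 2.7 (Cd9) to 13.7 (Mmp12) times the first, an order not counted over all genes. Pan-macrophage genes moved the same way, with summed levels of 37.3 and 102 RPKM in CD8-depleted livers, 261 and 345 RPKM in TG Aire-/- livers and 41 and 39.7 RPKM in Aire+/+ livers. The fall in CD8-depleted against TG Aire-/- livers depended on which libraries entered. Without the second TG Aire-/- library it was called for 3 genes (Trem2, Gpnmb and Mmp12) and for 18.6% of all genes. Without the first CD8-depleted library it was called for 4 (Trem2, Gpnmb, Cd9 and Fcgr4) and for 15.1% of all genes, and the difference was -1.06 for Ly6c2 (also not called without the first TG Aire-/- library, limma adjusted p = 0.0545) and -1.50 for Ccl2. Without the second TG Aire-/- library the Ccr2 difference was -1.16 and that of Ccl2 was -1.57. Without the second CD8-depleted library all 10 were called, Lyz2 included, as were 34.3% of all genes. Sex differed with the groups, since both CD8-depleted libraries were male, and with sex in the fit 5 genes were called lower (Trem2, Gpnmb, Cd9, Fcgr4 and Mmp12), as were 21.5% of all genes. In each of the 10 genes both CD8-depleted libraries were below the male TG Aire-/- library, which is a single library. How many of all genes lay in that order was not counted. The rise in TG Aire-/- against Aire+/+ livers was called for all 10 with sex in the fit.

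All tested genes together shifted upward in TG Aire-/- livers and downward after depletion, so the calls were repeated after scaling by median ratios. Rises were then called in TG Aire-/- livers for 15.8% of genes and falls for 12.1%, and all 10 listed genes still rose. In CD8-depleted against TG Aire-/- livers 9.79% of genes then rose and 14.3% fell. Among the listed genes Trem2, Gpnmb, Cd9, Fcgr4 and Mmp12 then fell, and the other 5 did not pass.

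Each gene was next expressed relative to the mean log2(RPKM + 1) of 7 pan-macrophage genes (Csf1r, Adgre1, Cd68, Fcgr1, Mertk, Cybb and Aif1) in the same library. On this scale Gpnmb was at -2.32 and -3.15 in CD8-depleted livers, -1.65 and 0.26 in TG Aire-/- livers and -2.45 and -2.55 in Aire+/+ livers. Mmp12 was at -2.32 and -2.76 in CD8-depleted livers, -2.12 and 0.76 in TG Aire-/- livers and -2.53 and -2.55 in Aire+/+ livers. In both genes the TG Aire-/- libraries were highest and the second of them stood far above the first. Gpnmb and Mmp12 differed by 1.80 (SE 0.547, limma adjusted p = 0.0018) and 1.86 (SE 0.546, limma adjusted p = 0.0013) in TG Aire-/- against Aire+/+ livers. In CD8-depleted against TG Aire-/- livers they differed by -2.04 (SE 0.547, limma adjusted p = 0.00115) and -1.85 (SE 0.546, limma adjusted p = 0.0029). This fit gave each gene the spread fitted over all genes, and the residual SD of these genes themselves was larger, 0.852 for Gpnmb and 1.19 for Mmp12. Without the second TG Aire-/- library neither was called, with differences of 0.85 and 0.42 in the first comparison and -1.08 and -0.41 in the second. No other listed gene was called lower in CD8-depleted livers on this scale, where 0.989% of all genes were. Gpnmb and Mmp12 were near 0 RPKM in Aire+/+ livers, so the pseudocount of 1 keeps their differences on this scale small. With a pseudocount of 0.1 and all libraries, they differed by 4.39 and 4.68 in the first comparison. In the second they then differed by -3.88 and -3.40, and Trem2 was called too, at -1.43 (limma adjusted p = 0.046). Falls were called there for 321 of 12231 genes. The fit without the second TG Aire-/- library was not run with that pseudocount.

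Ly6c2 was at 0.92 and 1.42 on the macrophage-relative scale in CD8-depleted livers, 0.83 and 1.28 in TG Aire-/- livers and -0.90 and -0.76 in Aire+/+ livers. The CD8-depleted and TG Aire-/- livers overlapped, and both were above the Aire+/+ livers. Its difference was 1.88 in TG Aire-/- against Aire+/+ livers (SE 0.594, limma adjusted p = 0.00255), and 1.66 with an adjusted p of 0.0548 without the second TG Aire-/- library. Ly6c2 also differed by 2.00 in CD8-depleted against Aire+/+ livers (SE 0.594, limma adjusted p = 0.0459), a call made for 0.515% of genes and lost without that TG Aire-/- library (limma adjusted p = 0.119). The residual SD of Ly6c2 itself was smaller, 0.28.

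Fcgr4 was higher relative to macrophage genes in TG Aire-/- against Aire+/+ livers, by 1.66 (SE 0.602, limma adjusted p = 0.00846), and by 1.72 without the second TG Aire-/- library (limma adjusted p = 0.0491). Higher calls were made on this scale for 0.711% of all genes. Itgax differed by -1.35 in TG Aire-/- against Aire+/+ livers (SE 0.567, limma adjusted p = 0.0225), where 82.3% of all genes were called lower. With a pseudocount of 0.1 the difference was -0.51 and was not called. Trem2, Ccr2, Ccl2, Cd9 and Lyz2 differed by -0.01, 0.28, 0.68, 0.99 and 0.56 and did not pass. With a pseudocount of 0.1 they differed by 0.90, 1.22, 1.46, 0.92 and 0.36, so the values of Trem2 and Ccr2 depended on the pseudocount. Among them only Ccl2 was then called (limma adjusted p = 0.0253), and Ccr2 had a limma adjusted p of 0.0643. Rises were called in that fit for 239 of 12231 genes.

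**Figure D3:**
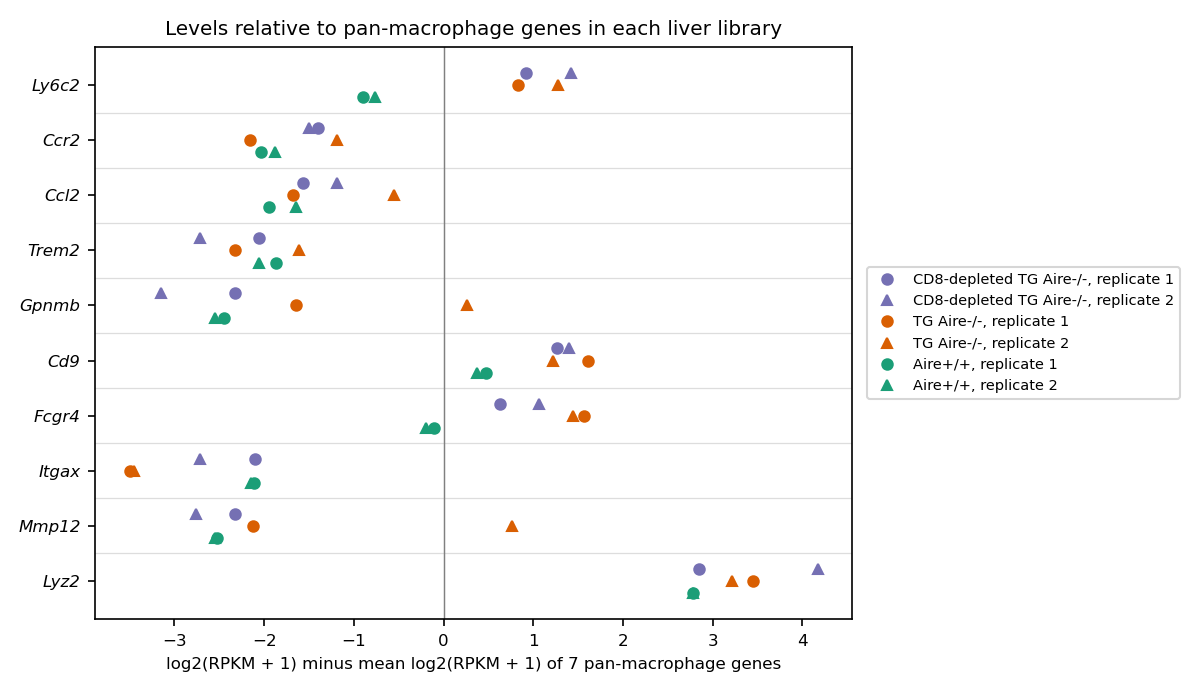
Level of each gene relative to 7 pan-macrophage genes, as log2(RPKM + 1) minus their mean in the same library, with CD8-depleted TG Aire-/- above TG Aire-/- and Aire+/+ in each row. The second TG Aire-/- library lies apart for Gpnmb (0.26) and Mmp12 (0.76), and Ly6c2 and Fcgr4 are below 0 in Aire+/+ livers alone.

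Resident Kupffer cells were followed by 12 genes, of which 8 rose in TG Aire-/- against Aire+/+ livers and 5 fell after depletion, beside 31.8% and 33.5% of all tested genes. Their median log2 difference was 1.57 in the first comparison and -0.93 in the second. Their summed level was 214 and 526 RPKM in CD8-depleted livers, 899 and 695 RPKM in TG Aire-/- livers and 233 and 222 RPKM in Aire+/+ livers. Marco, a scavenger receptor, had 8.35 and 29.4 RPKM in CD8-depleted livers, 270 and 175 RPKM in TG Aire-/- livers and 9.12 and 7.07 RPKM in Aire+/+ livers. Clec4f, a lectin of mouse Kupffer cells, had 25.1 and 80.2 RPKM in CD8-depleted livers, 73.6 and 31.3 RPKM in TG Aire-/- livers and 37.8 and 38.2 RPKM in Aire+/+ livers. Clec4f thus overlapped between groups, unlike the listed genes in TG Aire-/- against Aire+/+ livers. Among the Kupffer cell genes only Nr1h3 overlapped likewise in that comparison. The rest, like the listed genes, were higher in both TG Aire-/- libraries than in both Aire+/+ libraries, an order not counted over all genes. Cd5l was one of these, with a mean of 189 RPKM in TG Aire-/- livers and 41.7 RPKM in Aire+/+ livers.

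Neutrophils express Lyz2 too, and T cells can express Ly6c2. The summed level of 11 neutrophil genes was 92.3 and 369 RPKM in CD8-depleted livers, 459 and 639 RPKM in TG Aire-/- livers and 38.1 and 56 RPKM in Aire+/+ livers, with none of them at 0 in both libraries of a group. That of 7 T cell genes was 5.03 and 9.39 RPKM in CD8-depleted livers, 50.2 and 30 RPKM in TG Aire-/- livers and 2.53 and 2.25 RPKM in Aire+/+ livers. For each list the TG Aire-/- livers were highest. Endothelial genes (6) and platelet genes (5) also all rose in TG Aire-/- livers and all fell after depletion, beside 31.8% and 33.5% of all tested genes. Of the platelet genes, Gp9 and Gp1bb passed the filter only through the TG Aire-/- libraries. The part of these cell types in the levels of the 10 genes was not tested.

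Sorted liver CD8+ T cells were available as 1 library each of TG Aire-/-, TG Aire+/- and Aire-/- mice, normalized apart from the livers, so their values are a description. Ly6c2 had 628 RPKM in the TG Aire-/-, 1140.5 in the TG Aire+/- and 609 in the Aire-/- library. Ccr2 had 41.6, 28.3 and 11.4 RPKM and Itgax 9.41, 55.1 and 15.7 RPKM in the same order. These 3 genes were thus higher in sorted CD8+ T cells than in any liver, except that Ccr2 in the Aire-/- library was below its level in the second TG Aire-/- liver. Trem2, Mmp12 and Ccl2 were below 1 RPKM in all 3 sorted libraries, and Gpnmb and Fcgr4 did not exceed 1.26 and 1.95 RPKM.

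Ratios to Cd8a within a library set the livers beside the sorted cells. For Ly6c2 the ratio was 5.89 and 23.8 in TG Aire-/- livers, against 3.65, 4.39 and 2.58 in sorted TG Aire-/-, TG Aire+/- and Aire-/- cells. For Ccr2 it was 0.64 and 4.09 in TG Aire-/- livers, against 0.242, 0.109 and 0.0484 in the sorted cells. For Itgax it was 0.184 and 0.638 in TG Aire-/- livers, against 0.0547, 0.212 and 0.0666 in the sorted cells, so that the first liver lay within the sorted range. In Aire+/+ livers the ratios were 13.3 and 11.4 for Ly6c2, 2.65 and 2.79 for Ccr2 and 2.2 and 1.55 for Itgax. These too lay above the sorted cells, with Cd8a at 0.161 and 0.22 RPKM. In the CD8-depleted livers Cd8a was at 0 in 1 library, where Ly6c2 was at 9.02 RPKM. In the other, Cd8a was at 0.187 RPKM and the Ly6c2 ratio was 172. The part of CD8+ T cells in these liver levels was not tested. Lyz2 differed between the sorted libraries (35, 4.84 and 359 RPKM in the same order), as did S100a8, an alarmin of neutrophils and monocytes, with 144 RPKM in TG Aire-/-, 2.99 in TG Aire+/- and 350 in Aire-/- cells.

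**Figure D4:**
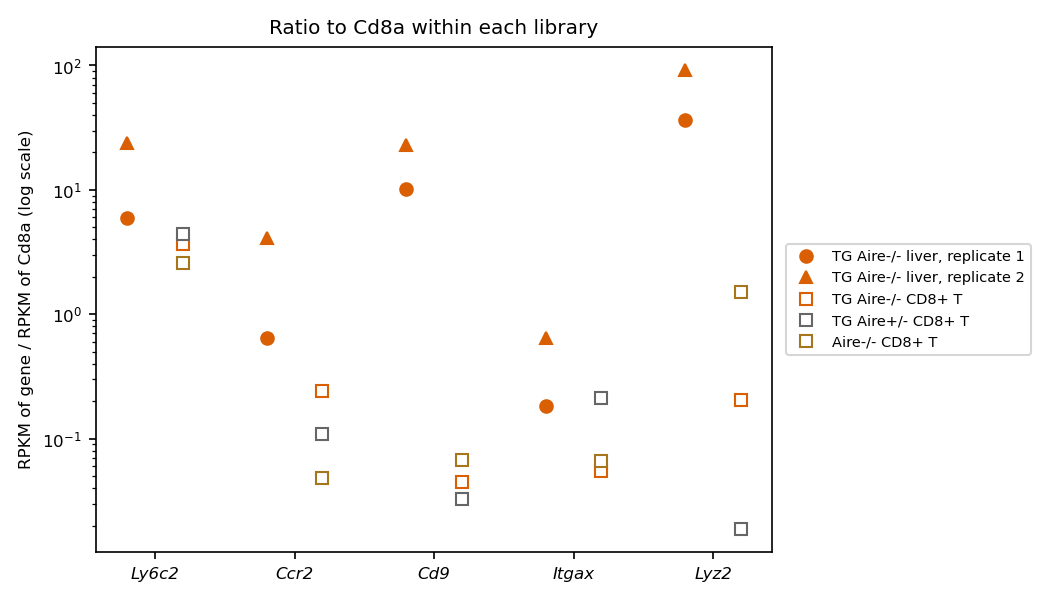
Ratio of RPKM to that of Cd8a in the same library (log scale) for the 5 listed genes with at least 5 RPKM in a sorted library; filled points are the TG Aire-/- livers and open squares the sorted CD8+ T libraries, 1 of each genotype. For Ly6c2, Ccr2, Cd9 and Lyz2 both livers lie above all 3 squares, while for Itgax the first liver (0.184) lies below the TG Aire+/- square (0.212).

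Other genes of monocyte entry moved with Ccl2 and Ccr2. Of 12 recruitment genes 10 passed the filter. Of these, 9 rose in TG Aire-/- livers and 9 fell after depletion, that is in CD8-depleted against TG Aire-/- livers. Ccl7, Ccl3 and Cx3cl1 passed only through the TG Aire-/- libraries, so they had to differ. Counts from here on stand beside 31.8% of all tested genes that rose in TG Aire-/- livers and 33.5% that fell after depletion. Pairs of log2 differences from here on give TG Aire-/- against Aire+/+ livers and then CD8-depleted against TG Aire-/- livers. Ccl4, a chemokine made by activated T cells and myeloid cells, had a mean of 0.855 RPKM in CD8-depleted livers, 11.4 in TG Aire-/- livers and 0.141 in Aire+/+ livers. It differed by 3.45 (limma adjusted p = 0.00207) and -2.86 (limma adjusted p = 0.00283). In sorted TG Aire-/-, TG Aire+/- and Aire-/- CD8+ T cells Ccl4 had 114, 221 and 138 RPKM, and Ccl3 had 212, 115 and 185. The part of these cells in the liver levels was not tested. Ccr1 and Csf1r, receptors for such chemokines and for the macrophage growth factor CSF1, rose by 3.09 and 2.89 and fell by 2.28 and 2.12. The growth factor gene Csf2 was listed at 0 in all 6 livers.

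Of 10 classical monocyte genes 9 passed the filter, and 8 rose in TG Aire-/- livers and 8 fell after depletion. Chil3, a secreted chitinase-like protein, had a mean of 16.3 RPKM in CD8-depleted livers, 101 RPKM in TG Aire-/- livers and 1.28 RPKM in Aire+/+ livers, and rose by 5.15 (limma adjusted p = 0.00402) and fell by 2.40 (limma adjusted p = 0.0473). Irf8, a transcription factor of the monocyte lineage, rose by 3.22 and fell by 2.82. Among 7 genes of patrolling monocytes, 6 passed the filter, 5 rose and 3 fell, beside 31.8% and 33.5% of all tested genes. Spn and Cx3cr1 of this list and Klf4 of the classical list passed only through the TG Aire-/- libraries.

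Of 18 further scar and lipid macrophage genes 17 passed the filter, 10 rose in TG Aire-/- livers, and 12 fell and 1 rose after depletion. The median log2 difference was 1.25 and then -1.61. Lgals3, the lectin galectin-3, had 2.93 and 13.5 RPKM in CD8-depleted livers, 67.9 and 144 RPKM in TG Aire-/- livers and 3.32 and 2.56 RPKM in Aire+/+ livers. It differed by 4.67 (limma adjusted p = 0.00277) and -3.73 (limma adjusted p = 0.00521). In sorted CD8+ T cells Lgals3 had 249 RPKM in the TG Aire-/-, 34.7 in the TG Aire+/- and 33.4 in the Aire-/- library. The part of these cells in its liver level was not tested. Fabp5, a fatty acid carrier, rose by 2.48 (limma adjusted p = 0.00476) and fell by 4.26 (limma adjusted p = 0.00153), to a mean of 12 RPKM in CD8-depleted livers, against 236 in TG Aire-/- livers and 40.5 in Aire+/+ livers. Spp1, osteopontin, which is often named beside Trem2 and Cd9 in scar macrophages and is also made by bile duct cells, did not pass. It had 18 and 94.3 RPKM in CD8-depleted livers, 43 and 70.7 RPKM in TG Aire-/- livers and 21.7 and 33 RPKM in Aire+/+ livers, with differences of 1.02 (limma adjusted p = 0.269) and -0.40 (limma adjusted p = 0.663). The second value turned to 0.32 after median-ratio scaling. Atp6v0d2, a proton pump subunit, was the gene that rose after depletion, by 1.79 (limma adjusted p = 0.0463); Spp1 and Atp6v0d2 were chosen after their values were seen.

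**Figure D5:**
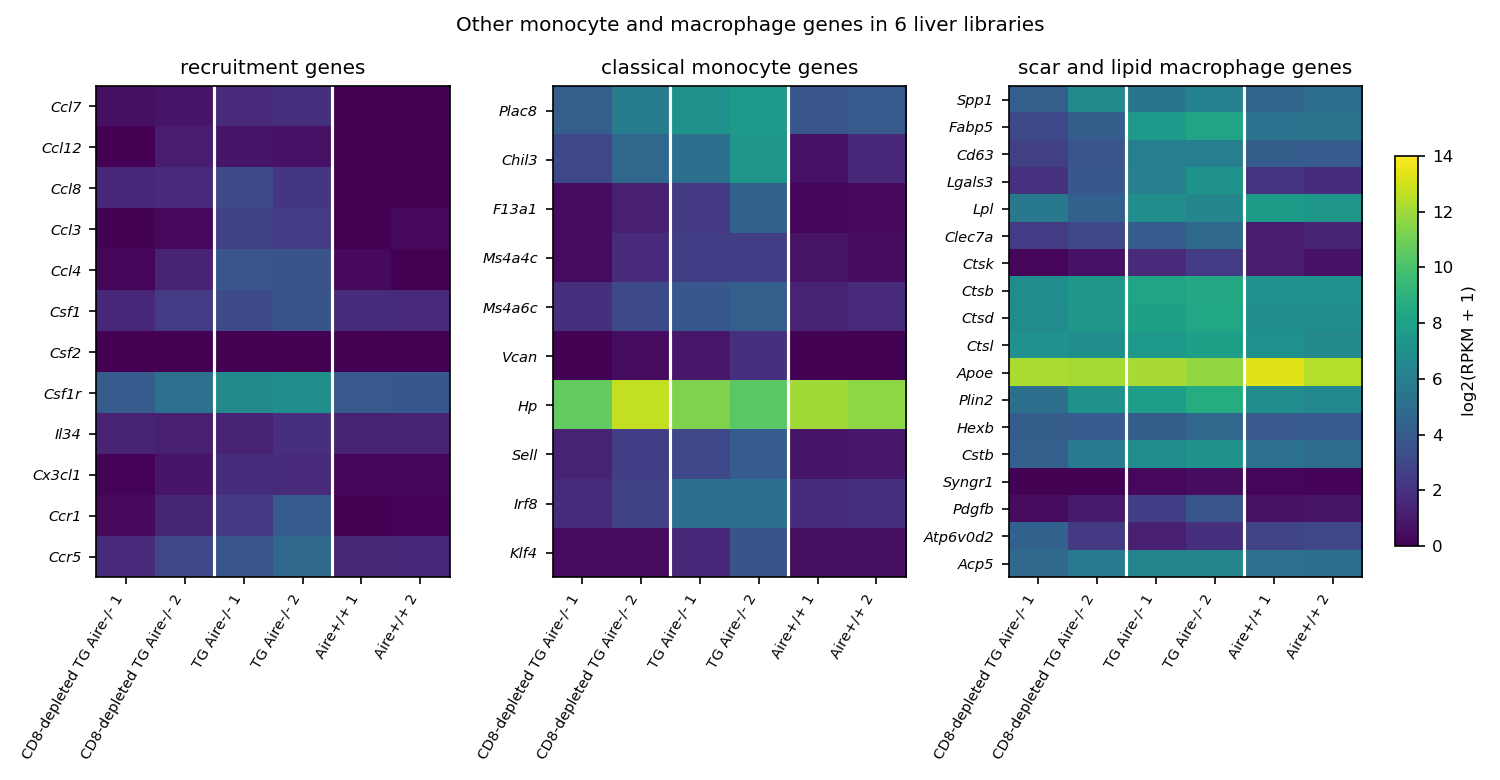
log2(RPKM + 1) of the recruitment, classical monocyte and scar or lipid macrophage genes (rows) in each liver library (columns, CD8-depleted TG Aire-/- left, TG Aire-/- in the middle, Aire+/+ right, set apart by white lines). Csf2 is at 0 in all 6 columns, Ccr1, Irf8, Lgals3 and Fabp5 are brightest in the middle pair, and Apoe, Hp and Atp6v0d2 are not.

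All 9 tested genes of the TREM2 signalling list rose in TG Aire-/- livers and all 9 fell after depletion, beside 31.8% and 33.5% of all tested genes. Ms4a7, Treml2 and Trem3 of this list passed the filter only through the TG Aire-/- libraries, so they had to differ. Tyrobp had 13.5 and 46.5 RPKM in CD8-depleted livers, 111 and 103 RPKM in TG Aire-/- livers and 15.2 and 14.4 RPKM in Aire+/+ livers, and differed by 2.77 and -2.04. Of 6 Fc receptor genes 5 rose in TG Aire-/- livers, and 4 fell and 1 rose after depletion. The 1 that rose was Pigr, the epithelial transporter of IgA, with a mean of 257 RPKM in CD8-depleted livers, 94.2 in TG Aire-/- livers and 18.1 in Aire+/+ livers; it was named after its values were seen. Fcgr3, a further activating IgG receptor, rose by 3.80 and fell by 2.99. All 6 tested leukocyte integrin genes rose and fell likewise, among them Itgam, the CD11b chain of myeloid cells, by 3.35 and 2.88.

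Of 10 other metalloproteinase genes 8 passed the filter, 5 rose in TG Aire-/- livers, and 4 fell and 1 rose after depletion. Of all tested genes 31.8% rose in TG Aire-/- livers, and 33.5% fell and 4.49% rose after depletion. Mmp13 and Mmp23 passed only through the TG Aire-/- libraries, so they had to differ. The 1 that rose after depletion was Mmp7, with 2.26 and 7.01 RPKM in CD8-depleted livers and 0.0777 and 0.301 in TG Aire-/- livers. Mmp7 passed only through the CD8-depleted libraries, so it had to differ too. Mmp13, a collagenase, had 0.0507 and 0.0907 RPKM in CD8-depleted livers, 3.91 and 26.3 RPKM in TG Aire-/- livers and 0 and 0.0735 RPKM in Aire+/+ livers. Like Mmp12 it was higher in the second TG Aire-/- library than in the first. It differed by 3.48 (limma adjusted p = 0.00795) and -3.43 (limma adjusted p = 0.00887). Timp1, an inhibitor of these enzymes, rose by 2.24 and fell by 1.73. The ratio of Mmp12 to Timp1 was 0.396 in the CD8-depleted library in which Timp1 was above 0, 1.13 and 13.5 in TG Aire-/- livers and 0.0468 and 0.0611 in Aire+/+ livers. Of 9 other tetraspanin genes 5 rose in TG Aire-/- livers and 5 fell after depletion, beside 31.8% and 33.5% of all tested genes. Tspan32 passed the filter only through the TG Aire-/- libraries.

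The 5 genes whose log2(RPKM + 1) across the 6 libraries was most like the mean of the 10 were Igsf6, Nfatc1, Zfp385c, Scn8a and Prkcd, with Pearson r of 0.9995, 0.9987, 0.9986, 0.9983 and 0.9978 among 12221 genes. The libraries share their groups, so these values describe a shared pattern of levels. Igsf6 had 2.37 and 7.63 RPKM in CD8-depleted livers, 18.9 and 40.7 RPKM in TG Aire-/- livers and 1.87 and 1.65 RPKM in Aire+/+ livers.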

How the data were processed

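The authors deposited RPKM values for 24786 genes, in 1 table of the 6 livers of batch 2 and 1 of 3 liver CD8+ T cell libraries. The submitters' processing notes name STAR 2.5.2b and the mm10 build; which annotation and counting tool were used is not given in the sources. The 4 livers without a batch number and the thymus libraries were not analysed here. Depth was inferred from low values; 41.1% to 47% of them in the livers were whole reads within 0.1 read, where chance gives 20%, so reads were not recovered and no count test was used. Precision rests on 2 libraries a group, which the labels do not say are separate animals, so p-values measure the spread between these samples.

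For the livers, log2(RPKM + 1) entered a single limma fit of the 3 groups without covariates, followed by eBayes with a trend and two-sided tests (limma 3.58.1, R 4.3.3). Genes with 1 RPKM in at least 2 livers were kept (12231), and p-values were adjusted by Benjamini-Hochberg within a comparison at 0.05. The pseudocount understates changes of low genes. The procedure was tested on simulated data. The 10 genes, the gene lists and the tests were chosen with earlier results of these data known. From each list the up to 3 and up to 2 called genes with the largest differences in the first and second comparison could be named, and from each cell type list the up to 2 most abundant. Aire, Clec4f, Cd8a, the genes named for how they passed the filter and the exceptions given in the text came in addition. Gene positions are GENCODE vM21 on GRCm38, the assembly of mm10, and promoter windows are from RefSeq GRCm38.p6.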

Additional observations from a re-analysis of the deposited data

How the results depend on the processing

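With 2 libraries a group, counts of called genes moved with the settings. In TG Aire-/- against Aire+/+ livers, 10 of the 10 genes were called, 5 relative to the pan-macrophage genes with either pseudocount (with 1, Ly6c2, Gpnmb, Fcgr4 and Mmp12 higher and Itgax lower; with 0.1, Ccl2 higher in place of Itgax), 1 (Fcgr4) on that scale without the second TG Aire-/- library, 4 with a minimum log2 change of 1, and 7 to 10 with each library left out in turn. In CD8-depleted against TG Aire-/- livers, 9 were called, 4 with no filter on low values, 5 after median-ratio scaling, 5 after quantile normalization, 5 with sex as a covariate, 2 relative to the pan-macrophage genes (3 with a pseudocount of 0.1, 0 without the second TG Aire-/- library), 1 with a minimum log2 change of 1, and 3 to 10 with each library left out. In CD8-depleted against Aire+/+ livers 0 were called, 1 (Ly6c2) relative to the pan-macrophage genes with either pseudocount, and 0 to 4 with each library left out. The cause was not tested. The fit without a filter tests 18914 genes in place of 12231. Calls over all tested genes moved as well. In CD8-depleted against TG Aire-/- livers 4097 fell, 3724 with no filter, 1405 after quantile normalization and 407 with a minimum log2 change of 1. Relative to the pan-macrophage genes 121 fell, and 321 with a pseudocount of 0.1. In TG Aire-/- against Aire+/+ livers 3892 rose, and 443 with that minimum change. Relative to the pan-macrophage genes 87 rose there, and 239 with a pseudocount of 0.1.

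Signs turned as follows. Relative to the pan-macrophage genes, with pseudocounts of 1 and 0.1 in that order where there are 2 values, TG Aire-/- against Aire+/+ gave -0.01 for Trem2 (pseudocount 1) and -1.35 and -0.51 for Itgax. CD8-depleted against TG Aire-/- gave 0.11 and 0.23 for Ly6c2, 0.23 for Ccr2 (pseudocount 1), 0.05 for Cd9 (pseudocount 0.1), 1.07 and 0.37 for Itgax and 0.17 and 0.34 for Lyz2. CD8-depleted against Aire+/+ gave -0.43 and -0.53 for Trem2, -0.23 for Gpnmb (pseudocount 1) and -0.28 and -0.14 for Itgax. On the same scale without the second TG Aire-/- library, TG Aire-/- against Aire+/+ gave -0.20 for Ccr2, -0.37 for Trem2 and -1.37 for Itgax. CD8-depleted against TG Aire-/- then gave 0.34 for Ly6c2, 0.71 for Ccr2, 0.30 for Ccl2, 1.09 for Itgax and 0.06 for Lyz2. CD8-depleted against Aire+/+ also gave -0.03 for Trem2 with a pseudocount of 0.1 on the plain scale, and, with each library left out, -0.26 to 0.31 for Trem2, -0.13 to 0.49 for Itgax and -0.09 to 2.46 for Lyz2. Spp1 in CD8-depleted against TG Aire-/- livers gave 0.32 after median-ratio scaling and -1.56 to 0.76 with each library left out. The macrophage-relative fits with a pseudocount of 0.1 or without that library, and all fits of genes outside the 10, were chosen after seeing the data.

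The replicate numbers do not pair the samples by their labels. Deviations of same-numbered libraries had r of 0.292 between TG Aire-/- and Aire+/+, -0.145 between CD8-depleted and TG Aire-/- and -0.0925 between CD8-depleted and Aire+/+. With the replicate block the calls among the 10 genes were 10, 9 and 0 in these comparisons, the counts without it.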
